A study of Caenorhabditis elegans with 4 samples.

Results

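The genes named *flp* and *nlp* encode precursors of short secreted peptides in *C. elegans*, and all rows of the deposited expression table whose name is *flp* or *nlp* followed by a number were taken as members. There were 75 such genes, 31 *flp* and 44 *nlp*, among 42048 genes in the table. RNA was sequenced from whole embryos of 2 groups with 2 libraries each. The *meg-1 meg-2* embryos came from mothers with the *meg-1(vr10)* allele that were fed bacteria expressing *meg-2* double-stranded RNA (*meg-2* RNAi). The wild-type embryos came from N2 mothers fed bacteria with the empty vector (L4440 RNAi). Both groups were therefore fed RNAi bacteria from synchronized first-stage larvae to adulthood, and the embryos were freed from the adults by bleaching, so each library pools embryos of many mothers. MEG-1 and MEG-2 are disordered proteins of the embryonic germ lineage. Values of each library were recovered from the deposited means, and the libraries of a genotype are called A and B, an arbitrary order that no replicate number stands behind.

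FLP precursors (FMRFamide-like peptides) release peptides that end in arginine and amidated phenylalanine, whereas NLP precursors (neuropeptide-like proteins) hold many other families. The precursors are cut by proprotein convertases, trimmed by a carboxypeptidase, often amidated at the C terminus, stored in dense core vesicles and released to act mostly on G-protein-coupled receptors. Most are made by differentiating neurons, which take up their final form late in embryogenesis. Some *nlp* genes are instead expressed in the epidermis, where their short peptides rich in glycine and tyrosine act against microbes.

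The 4 libraries held between 20662429 and 26017429 reads on genes, and a count of 0 allows up to 3 reads, or between 0.114 and 0.149 fpm. Levels are given in fpm, which is the unit of the deposited table, fragments scaled to a common depth by size factors. Reads on *meg-1* numbered 19 and 18 in *meg-1 meg-2*, against 1933 and 2423 in wild type, and reads on *meg-2* numbered 141 and 172, against 515 and 677, so the knockdown of *meg-2* left part of its transcript. Transcripts of adult tissue were near 0, with 2.66 and 2.94 fpm summed over 6 yolk protein genes in *meg-1 meg-2* and 2.32 and 2.65 fpm in wild type. Libraries of wild type were less alike than those of *meg-1 meg-2*, with an SD of the log2 difference between the 2 libraries of 0.20 in *meg-1 meg-2* and 0.36 in wild type over the genes tested. The test was limma on log2(fpm + 0.1) for the 12734 genes that averaged at least 1 fpm over the 4 libraries, and a gene was called when it changed at least 1.5-fold with a Benjamini-Hochberg adjusted *P*-value below 0.05. This gave 706 genes higher in *meg-1 meg-2* and 388 lower, whereas scaling by total reads gave 435 higher and 430 lower.

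Levels of the neuropeptide genes were low, with a median over the 75 members of 1.06 fpm in *meg-1 meg-2* and 1.15 fpm in wild type. Of the 75 members, 44 (58.7%) reached 1 fpm in at least 1 genotype, against 63.1% of the 19574 protein-coding genes in the table. Of these 44 genes, 38 reached it in both genotypes, 2 in *meg-1 meg-2* only (*nlp-13* and *nlp-37*) and 4 in wild type only (*flp-6*, *flp-34*, *nlp-22* and *nlp-23*). The other 31, 14 *flp* and 17 *nlp* genes, were below 1 fpm in both and count as not expressed. Just above the limit lay *nlp-22*, with 0.736 fpm in *meg-1 meg-2* and 1.01 fpm in wild type, and just below it lay *flp-25*, with 0.990 and 0.877 fpm. The 31 genes had between 4 and 88 reads over the 4 libraries together, and 2 of them, *flp-23* and *nlp-20*, had no read in *meg-1 meg-2* library B. The median level per length over all members was 2.71 FPKM (fpm per kb of gene length) in *meg-1 meg-2* and 3.27 FPKM in wild type. Only 7 members reached a mean of 5 fpm, of which *flp-1* was the only *flp* gene.

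The highest members were *nlp* genes, and several of them are known from the epidermis. *nlp-31*, an antimicrobial peptide gene of the epidermis on chromosome V, had 37.5 and 37.8 fpm in *meg-1 meg-2*, against 29.3 and 29.7 fpm in wild type. *nlp-36*, on chromosome III, had 24.02 and 25.7 fpm in *meg-1 meg-2*, against 19.1 and 15.7 fpm in wild type. For both genes the libraries of each genotype lay close together and the *meg-1 meg-2* libraries lay above both wild-type libraries. *nlp-24*, a precursor of peptides rich in glycine and tyrosine, had 12.8 and 12.9 fpm in *meg-1 meg-2*, against 19.3 and 10.9 fpm in wild type. *nlp-33*, of the same kind of short precursor, had 9.999 and 8.11 fpm in *meg-1 meg-2*, against 13.7 and 9.39 fpm in wild type. In *nlp-24* the *meg-1 meg-2* libraries fell between the wild-type libraries, and in *nlp-33* 1 did, so in both genes wild-type library A was the highest. These 4 genes made up 46.5% and 45.4% of the summed fpm of all members in *meg-1 meg-2*, and 39.1% and 43.2% in wild type.

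Per length the same 4 genes were at the top. In *meg-1 meg-2* and wild type, *nlp-31* averaged 165 and 129 FPKM, *nlp-36* averaged 99.8 and 69.9 FPKM, *nlp-24* averaged 52.8 and 61.9 FPKM and *nlp-33* averaged 40.3 and 51.2 FPKM. The order held in both *meg-1 meg-2* libraries and in wild-type library B, but in wild-type library A *nlp-24* had 79.2 FPKM and *nlp-36* 76.9 FPKM, and the libraries of *nlp-24* and *nlp-33* overlapped. *nlp-31* was above *nlp-36* in every library. The next were *nlp-29* and *nlp-34*, with 28.9 and 27.01 FPKM in *meg-1 meg-2*, against 26.9 and 19.3 FPKM in wild type.

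*nlp-40* encodes an intestinal peptide that times the defecation rhythm through the receptor AEX-2. It had 6.02 and 8.51 fpm in *meg-1 meg-2*, against 7.11 and 6.06 fpm in wild type. *nlp-21* had 2.70 and 2.39 fpm in *meg-1 meg-2*, against 3.84 and 2.53 fpm in wild type. *nlp-7* had 1.95 and 2.94 fpm in *meg-1 meg-2*, against 3.99 and 2.45 fpm in wild type. The genotypes overlapped in each of these genes. *nlp-11*, the tenth *nlp* gene by level, had 2.08 and 3.63 fpm in *meg-1 meg-2*, against 2.51 and 2.84 fpm in wild type, and also overlapped.

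Among the *flp* genes, *flp-1* was the highest. It encodes FMRFamide-like peptides that act on locomotion, and had 5.40 and 5.48 fpm in *meg-1 meg-2*, against 7.99 and 5.29 fpm in wild type. *flp-18*, whose peptides activate the receptors NPR-1 and NPR-5, had 3.41 and 3.43 fpm in *meg-1 meg-2*, against 4.34 and 2.61 fpm in wild type. *flp-15* had 2.12 and 2.59 fpm in *meg-1 meg-2*, against 3.16 and 2.65 fpm in wild type. In *flp-1* and *flp-18* the *meg-1 meg-2* libraries lay between the wild-type libraries, whereas in *flp-15* they lay below both by a margin of 2.59 against 2.65 fpm. *flp-11*, known as the sleep-promoting peptide gene of the RIS neuron, had 1.90 and 2.19 fpm in *meg-1 meg-2*, against 3.69 and 2.26 fpm in wild type. *flp-27* had 2.39 and 1.64 fpm in *meg-1 meg-2*, against 2.66 and 2.57 fpm in wild type. Both of these also lay below both wild-type libraries, and in *flp-11* wild-type library B was close to the *meg-1 meg-2* libraries. *flp-3*, known from male mating, had 2.17 and 1.69 fpm in *meg-1 meg-2*, against 3.04 and 1.92 fpm in wild type. The remaining 4 of the 10 highest *flp* genes, *flp-9*, *flp-12*, *flp-28* and *flp-24*, lay between 1.24 and 2.09 fpm in the *meg-1 meg-2* libraries and between 1.23 and 2.24 fpm in the wild-type libraries, and their genotypes overlapped.

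**Figure D1:**
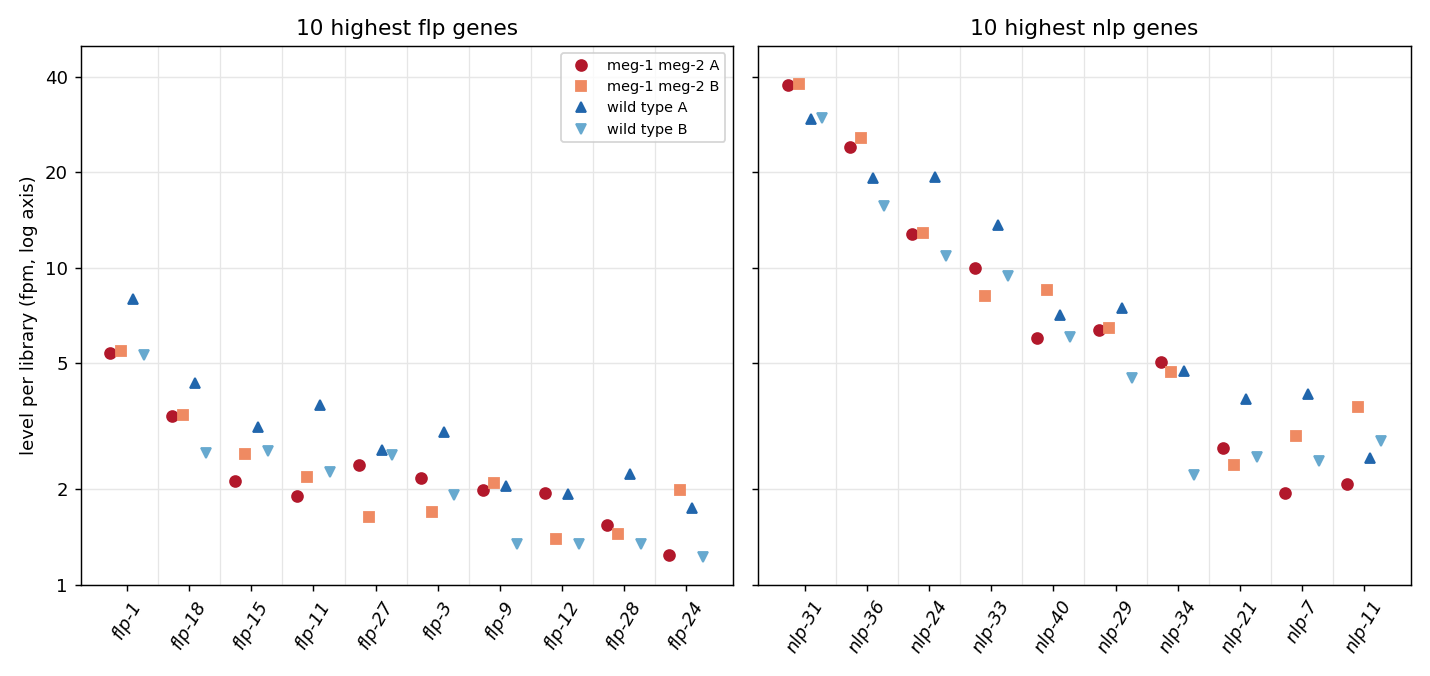
Level of the 10 highest *flp* genes (left) and the 10 highest *nlp* genes (right) in each library, in fpm on a log axis, with 1 point per library and no error bars. The *flp* genes lie below 8 fpm, and in *nlp-31* and *nlp-36* both *meg-1 meg-2* points lie above both wild-type points, whereas in most other genes wild-type library A is the highest or near it.

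No member was called between the genotypes. Of the 40 members tested, 15 *flp* and 25 *nlp* genes, 0 were higher and 0 were lower at 1.5-fold with an adjusted limma *P*-value below 0.05, against 5.54% of all tested genes higher and 3.05% lower. The 4 members that reached 1 fpm in a single genotype but not on average, *flp-6*, *flp-34*, *nlp-13* and *nlp-22*, were not tested. With an unadjusted *P*-value below 0.05 and the same fold change the count was also 0 in each direction, where 6.18% of all genes were higher and 4.30% lower. At an unadjusted limma *P*-value below 0.05 with no minimum fold, 3 members passed, *nlp-31*, *nlp-34* and *nlp-36*, against 4558 of the 12734 tested genes and 553 of the 2804 protein-coding genes with a mean between 1 and 5 fpm. On the recovered reads, edgeR's quasi-likelihood test and DESeq2 also called 0 members, and each gave 2 with an unadjusted *P*-value below 0.05, against 4660 of all tested genes in edgeR and 3841 in DESeq2. DESeq2 gave no adjusted *P*-value for 33 of the 40 members, which its filter on low counts had removed.

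*nlp-36* was the only member with an adjusted *P*-value below 0.05, in limma, where 13.8% of all tested genes were higher and 7.83% lower by that criterion. Its mean was 24.9±1.18 fpm in *meg-1 meg-2* and 17.4±2.44 fpm in wild type (SD, *n*=2 each), a 1.43-fold difference that fell short of 1.5-fold. The log2 fold change was 0.52 (95% interval 0.18 to 0.85, limma adjusted *P*=0.0194). The adjusted *P*-value was 0.0886 in edgeR and 0.0405 in DESeq2, and in limma it was 0.0625 after scaling by total reads, 0.0608 after quantile normalization and 0.101 without the mean trend. *nlp-36* shares 11 bp of exon with *dars-1*, an aminoacyl-tRNA synthetase gene on the opposite strand, in the WBcel235 annotation. *dars-1* had 181 fpm in *meg-1 meg-2* and 156 fpm in wild type, with a log2 ratio of 0.22 (limma adjusted *P*=0.195), and the strand setting of the read counting is not given in the sources used here.

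*nlp-31* averaged 37.7±0.221 fpm in *meg-1 meg-2* and 29.5±0.248 fpm in wild type (SD, *n*=2 each), with a log2 fold change of 0.35 (95% interval 0.05 to 0.65, limma adjusted *P*=0.0831). *nlp-34*, its neighbour on chromosome V, had 5.04 and 4.68 fpm in *meg-1 meg-2*, against 4.72 and 2.22 fpm in wild type. Wild-type library A thus lay within the range of the *meg-1 meg-2* libraries, and the log2 fold change of 0.57 (limma adjusted *P*=0.0953) became 0.04 without wild-type library B and 1.09 without wild-type library A. *nlp-37*, listed as *pdf-2* in the annotation and encoding a pigment-dispersing factor peptide, had 1.20 and 1.54 fpm in *meg-1 meg-2*, against 0.951 and 0.997 fpm in wild type. Its log2 fold change was 0.44 (95% interval −0.20 to 1.09, limma adjusted *P*=0.330), with both *meg-1 meg-2* libraries above both wild-type libraries after scaling. The remaining member among the 5 largest fold changes was *flp-9*, at 0.28 (95% interval −0.31 to 0.87, limma adjusted *P*=0.513).

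At the other end, *flp-11* had the smallest log2 fold change, −0.48 (95% interval −1.04 to 0.07, limma adjusted *P*=0.203). *nlp-38*, which encodes myoinhibitory-like peptides and is listed as *mihp-1* in the annotation, had 1.81 and 2.44 fpm in *meg-1 meg-2*, against 3.73 and 2.34 fpm in wild type, and its log2 fold change was −0.47 (95% interval −1.02 to 0.08, limma adjusted *P*=0.213). Its wild-type library B fell between the *meg-1 meg-2* libraries. The log2 fold changes of *flp-27*, *nlp-7* and *nlp-30* were −0.38, −0.38 and −0.36, with limma adjusted *P*-values of 0.328, 0.324 and 0.353.

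The intervals of the members were wide. The 95% interval of the log2 fold change had a median half-width of 0.58 over the 40 tested members, against 0.57 over the 2804 protein-coding genes with a mean between 1 and 5 fpm and 0.33 over all tested genes. It contained 0 for 37 members, lay within 2-fold in both directions for 36 and within 1.5-fold in both directions for only 5. A change of 1.5-fold in at least 1 direction thus lay within the interval of the other 35. Of the 2804 protein-coding genes at 1 to 5 fpm, 137 were called higher and 125 lower.

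**Figure D2:**
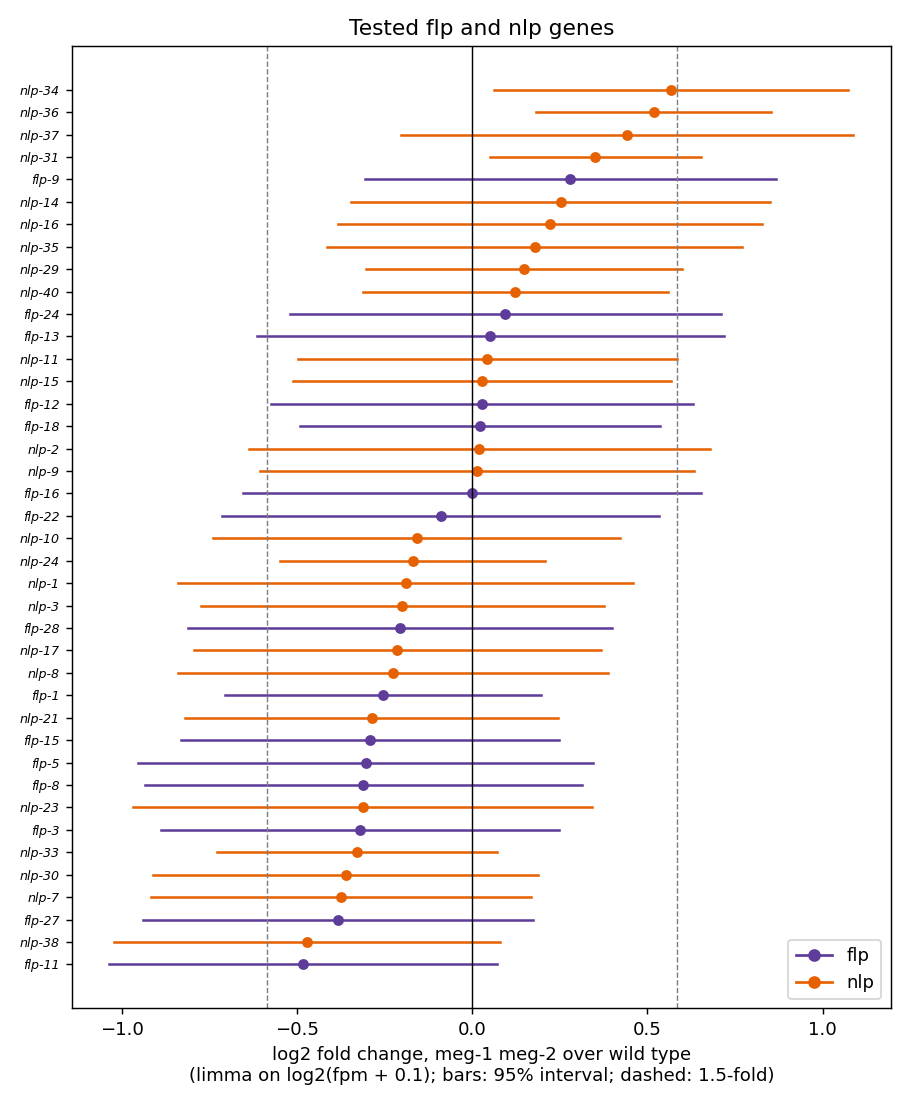
Fold changes (log2, *meg-1 meg-2* over wild type) of the 40 tested members, sorted, with 95% intervals from limma and dashed lines at 1.5-fold. Points run from −0.48 (*flp-11*) to 0.57 (*nlp-34*), and the intervals of *nlp-34*, *nlp-36* and *nlp-31* alone lie above 0.

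Groups overlapped in most members. The lower *meg-1 meg-2* library exceeded the higher wild-type library in 3 of the 40 tested members (*nlp-31*, *nlp-36* and *nlp-37*), where 35.4% of all tested genes and 485 of the 2804 protein-coding genes at 1 to 5 fpm did so. The reverse held in 4 members (*flp-5*, *flp-11*, *flp-15* and *flp-27*), where 30.1% of all tested genes and 914 of these 2804 did so. Fold changes of members were spread to both sides, with 18 above 0 and 22 below. The median log2 fold change was −0.12, against −0.16 over the protein-coding genes at 1 to 5 fpm and 0.01 over all tested genes. It was −0.21 for the 15 *flp* genes and 0.01 for the 25 *nlp* genes, a difference that was not tested. The median over the members stayed below 0 after scaling by total reads (−0.19) and after quantile normalization (−0.03), but it was 0.15 without wild-type library A.

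The larger difference among the members was between the wild-type libraries. Wild-type library A was above library B in 35 of the 40 tested members, in 15 of 15 *flp* and 20 of 25 *nlp* genes, against 39.7% of all tested genes and 67.5% of the protein-coding genes at 1 to 5 fpm. The median log2 difference of library A minus library B was 0.58 over the members, 0.22 over these protein-coding genes and −0.10 over all tested genes. Library A was the highest of the 4 libraries in 26 members (65.0%), against 33.6% of all tested genes and 53.2% of the protein-coding genes at 1 to 5 fpm, and library B was the highest in 1 member, *nlp-23*. After scaling by total reads library A was above library B in 37 of the 40 members and after quantile normalization in 33. *nlp-16* had 2.97 fpm in wild-type library A and 1.00 fpm in library B, with 1.99 and 2.09 fpm in *meg-1 meg-2*, so both *meg-1 meg-2* libraries lay between the wild-type libraries.

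The genotype comparison therefore depended on the wild-type library used. The mean of the *meg-1 meg-2* libraries was below wild-type library A in 32 of the 40 members and below wild-type library B in 10, against 69.3% and 52.5% of the protein-coding genes at 1 to 5 fpm. The median log2 difference was −0.33 from library A and 0.15 from library B, against −0.30 and −0.04 over the protein-coding genes at 1 to 5 fpm and 0.04 and 0.01 over all tested genes. With library B left out, limma called 1442 of all tested genes lower and 1431 higher, among them 8 members lower (*flp-3*, *flp-8*, *flp-11*, *nlp-7*, *nlp-8*, *nlp-30*, *nlp-33* and *nlp-38*) and 0 higher. With library A left out, it called 460 of all tested genes higher and 260 lower, among them 3 members higher (*nlp-16*, *nlp-34* and *nlp-36*) and 0 lower. In these fits the remaining wild-type library is assumed to vary like the *meg-1 meg-2* libraries. The limit of 1 fpm was applied anew to the mean of the libraries kept. The genes tested were therefore not the same as in the main test, and these counts are no shares of the 40 members.

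**Figure D3:**
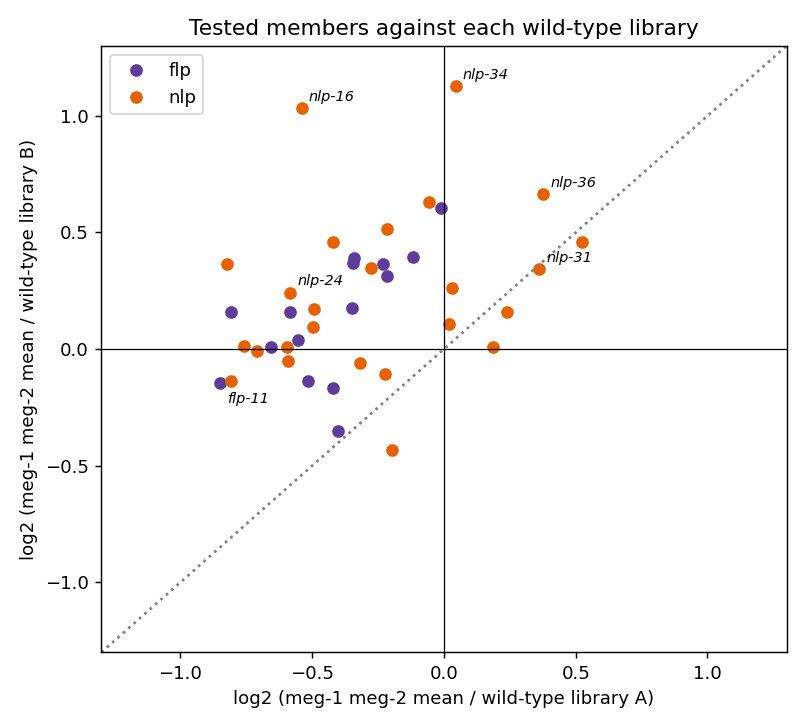
Log2 ratio of the *meg-1 meg-2* mean to wild-type library A (x axis) and to wild-type library B (y axis) for the 40 tested members, with 1 point per gene and a dotted line where both ratios are equal. Most points lie left of 0 and above 0, since 32 members are below wild-type library A and only 10 are below library B, and *nlp-31* and *nlp-36* are among those to the right of and above 0.

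The summed levels showed the same split. The 31 *flp* genes summed to 38.7 and 37.8 fpm in *meg-1 meg-2*, against 52.4 and 35.9 fpm in wild type. The 44 *nlp* genes summed to 143 and 148 fpm in *meg-1 meg-2*, against 156 and 116 fpm in wild type. In both families the *meg-1 meg-2* libraries lay between the wild-type libraries. The ratio of the means was 0.865 for *flp* and 1.07 for *nlp* genes, and with 2 libraries against 2 no exact two-sided permutation test can give a *P*-value below 0.33.

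Markers of tissues and of maternal RNA also differed between the libraries. Over 10 neuronal genes (*rab-3*, *unc-13* and others, all detected), the summed level was 572 and 569 fpm in *meg-1 meg-2*, against 700 and 616 fpm in wild type, and 0 of the 10 were called. Over 5 body-wall muscle genes it was 1504 and 1542 fpm in *meg-1 meg-2*, against 2748 and 1795 fpm in wild type, with *unc-54* and *unc-15* called lower. Over 8 epidermal genes it was 3927 and 4229 fpm in *meg-1 meg-2*, against 5521 and 5386 fpm in wild type, with 0 called. Over 8 maternal genes it was 1221 and 1217 fpm in *meg-1 meg-2*, against 750 and 944 fpm in wild type, with *oma-2* and *spn-4* called higher. More genes had an adjusted limma *P*-value below 0.05 when no minimum fold was asked. These were 6 of the 8 epidermal and 3 of the 5 muscle genes, all lower, and 7 of the 8 maternal genes, all higher. By that criterion 7.83% of all tested genes were lower and 13.8% higher, and 0 of the 10 neuronal genes passed. In muscle, as among the *flp* genes, wild-type library A held the most and the other 3 libraries less, whereas the maternal sum was lowest in wild-type library A. Their part in the levels of the neuropeptide genes was not tested. In RNA of whole embryos, fewer cells of a type and less RNA per cell cannot be told apart.

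**Figure D4:**
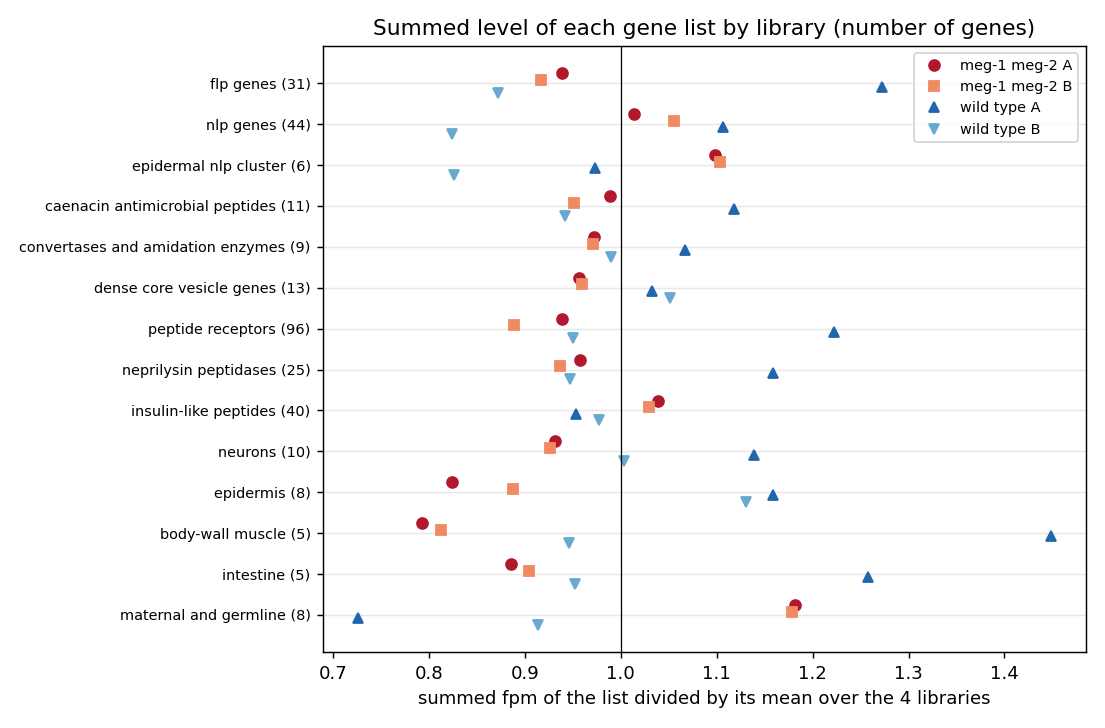
Summed fpm of each gene list in each library, divided by the mean of the 4 libraries for that list, with the number of genes in brackets and 1 point per library. For the *flp* genes, peptide receptors, body-wall muscle and intestine genes wild-type library A stands apart to the right, and for maternal genes both *meg-1 meg-2* libraries lie to the right.

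Neuropeptide genes that lie next to each other in a cluster on chromosome V did not share a level. On chromosome V, *nlp-34*, *nlp-31*, *nlp-30*, *nlp-29*, *nlp-28* and *nlp-27* follow each other with 0 other coding genes between them in the WBcel235 annotation, and this cluster is known for antimicrobial peptides of the epidermis. *nlp-31* was the highest, at 37.7 fpm in *meg-1 meg-2* and 29.5 fpm in wild type. *nlp-29*, the member best known for its induction by fungal infection, had 6.37 and 6.47 fpm in *meg-1 meg-2*, against 7.46 and 4.49 fpm in wild type, and *nlp-30* had 2.17 and 2.24 fpm against 3.73 and 2.19 fpm. *nlp-27* and *nlp-28* were not expressed, with read counts in *meg-1 meg-2* of 9 and 10, against 4 and 5 in wild type, for *nlp-27*, and of 3 and 3, against 10 and 2, for *nlp-28*. The genotypes did not overlap in *nlp-27*, at a level too low to test, and overlapped in *nlp-28*. The cluster summed to 51.6 and 51.9 fpm in *meg-1 meg-2*, against 45.8 and 38.8 fpm in wild type, most of it from *nlp-31*. Of the 8 genes of the epidermal marker list, 6 were lower in both *meg-1 meg-2* libraries than in both wild-type libraries, *lin-26* overlapped and *elt-1* was above. At 1.5-fold 0 of the 8 were called, and with no minimum fold 6 were lower at an adjusted limma *P*-value below 0.05. Of the 4 tested genes of the cluster, 0 passed by either criterion.

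Other neighbours were low throughout. On chromosome X, *flp-28*, *flp-3* and *flp-2* follow each other, of which *flp-2* was below 1 fpm in both genotypes, and *nlp-22*, *nlp-23* and *nlp-2* follow each other with means between 0.736 and 1.24 fpm in each genotype. The X chromosome held 23 of the 75 members, 13 *flp* and 10 *nlp* genes, and 14 of the 40 tested ones. Of the tested members, 7 share exon bases with a coding gene on the opposite strand, among them *nlp-24* (24 bp with *glb-15*, a gene of 1.11 fpm in *meg-1 meg-2* and 1.32 fpm in wild type) and *flp-11* (17 bp with *tmem-135*, at 6.11 and 8.10 fpm). Partners at higher levels were *subs-4* (46 bp with *nlp-21*, at 26.5 and 33.9 fpm) and *seld-1* (30 bp with *nlp-17*, at 15.4 and 13.1 fpm). *flp-3* and *flp-28* overlap *W07E11.1* on the opposite strand, at 585 and 601 fpm, without sharing exon bases.

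Among genes below the test's limit, *flp-21* stood out by its reads and was singled out after its values were seen. It encodes a ligand of NPR-1, the receptor that sets social feeding. It had 5 and 5 reads in *meg-1 meg-2*, against 23 and 14 reads in wild type, or 0.235 and 0.706 fpm on average. Both *meg-1 meg-2* libraries lay below both wild-type libraries, but all 4 were below 1 fpm, so it counts as not expressed. With the FPKM limit of the study's methods as the filter it was tested, and its log2 fold change was −1.24 with an adjusted limma *P*-value of 0.0216, and without any filter the adjusted *P*-value was 0.231.

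Of the genes that process neuropeptide precursors, all 9 convertase and amidation genes were tested and 0 were called. The log2 fold change was below 0 in 8 of the 9, against 6294 of all 12734 tested genes. Both *meg-1 meg-2* libraries lay below both wild-type libraries in 6 of the 9, against 30.1% of all tested genes. *egl-3*, the main convertase of neuropeptide precursors, had 14.3 and 14.5 fpm in *meg-1 meg-2*, against 22.7 and 14.9 fpm in wild type. *egl-21*, the carboxypeptidase that trims the cut peptides, had 13.2 and 14.3 fpm in *meg-1 meg-2*, against 18.8 and 14.8 fpm in wild type. In both genes wild-type library B was close to the *meg-1 meg-2* libraries and library A was above. *pamn-1*, a peptidylglycine amidating enzyme, had 48.9 and 52.9 fpm in *meg-1 meg-2*, against 67.5 and 66.0 fpm in wild type, and its log2 fold change was −0.39, under 1.5-fold (limma adjusted *P*=0.0314). The highest of the list were *bli-4* and *kpc-1*, convertases with many substrates outside the nervous system, at 254 and 196 fpm in *meg-1 meg-2* and 241 and 211 fpm in wild type.

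Of 13 dense core vesicle genes in the table, all were tested and 0 were called. *unc-31*, which is needed for vesicle release, had 25.8 and 25.0 fpm in *meg-1 meg-2*, against 36.8 and 26.2 fpm in wild type, and *ida-1*, a vesicle membrane protein, had 41.5 and 40.2 fpm against 61.9 and 38.8 fpm. In both genes wild-type library A was the highest, as in 8 of the 13, against 33.6% of all tested genes. In 8 of the 13 both *meg-1 meg-2* libraries lay below both wild-type libraries, against 30.1% of all tested genes. The list summed to 545 and 547 fpm in *meg-1 meg-2*, against 589 and 599 fpm in wild-type libraries A and B. The 3 highest of the list were each higher in wild-type library B than in library A. In libraries A and B, *hid-1* had 130 and 158 fpm, *vps-51* 95.3 and 102 fpm and *unc-108* 76.1 and 81.0 fpm. Their means in *meg-1 meg-2* lay between 71.5 and 118 fpm.

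Of 96 peptide receptor genes, 54 were tested, 0 were higher and 1 was lower. The gene called lower was *tkr-1*, a tachykinin receptor homologue, with 2.48 and 1.74 fpm in *meg-1 meg-2*, against 3.46 and 4.41 fpm in wild type (log2 fold change −0.88, standard error 0.27, limma adjusted *P*=0.0120). It was also called in edgeR, but not after quantile normalization, without the mean trend or without a filter on low values. The receptor list had a median log2 fold change of −0.24, with 44 of 54 genes below 0, against 6294 of all 12734 tested genes and 1806 of the 2804 protein-coding genes at 1 to 5 fpm. Wild-type library A was the highest library for 35 of the 54, and for 53.2% of these protein-coding genes. The most abundant receptors were *dmsr-1*, with 11.5 and 10.4 fpm in *meg-1 meg-2* against 17.8 and 11.1 fpm in wild type, *pdfr-1*, the receptor of pigment-dispersing factor peptides, with 10.4 and 7.96 fpm against 15.03 and 9.20 fpm, and *frpr-19*, with 8.14 and 8.86 fpm against 9.32 and 10.2 fpm.

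Neprilysins degrade peptides outside the cell, and 12 of 25 in the table were tested. *nep-2* was lower, with 18.9 and 17.2 fpm in *meg-1 meg-2*, against 34.9 and 26.0 fpm in wild type (log2 fold change −0.73, standard error 0.17, limma adjusted *P*=5.52e-04). *nep-24* was higher, with 4.29 and 3.19 fpm in *meg-1 meg-2*, against 1.83 and 2.42 fpm in wild type (log2 fold change 0.79, standard error 0.27, limma adjusted *P*=0.0259). Each lay outside the range of the other genotype. The call of *nep-2* was kept in edgeR and DESeq2 and lost without the mean trend and without a filter on low values. That of *nep-24* was lost in edgeR, after quantile normalization, after scaling by total reads, without the mean trend and without that filter. It was also absent with the FPKM limit of the study as the filter. Both genes differed more from wild-type library A than from library B. The 3 most abundant were *nep-1*, *nep-17* and *nep-22*, at 244, 173 and 23.6 fpm in *meg-1 meg-2* and 208, 241 and 29.4 fpm in wild type.

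Other families of secreted peptides were also mostly too low to test. Of 40 insulin-like genes, 6 were tested. *ins-37* was higher, with 50 and 34 reads in *meg-1 meg-2* against 24 and 24 reads in wild type (log2 fold change 1.00, limma adjusted *P*=0.0152), and *ins-1*, the insulin-like peptide most often studied as an antagonist of DAF-2, was lower, with 44 and 34 reads against 91 and 78 reads (log2 fold change −0.79, limma adjusted *P*=0.0290). Of 11 caenacin genes, a second group of epidermal antimicrobial peptides, 4 were tested and *cnc-3* was lower, with 3.05 and 3.04 fpm in *meg-1 meg-2* against 5.71 and 4.18 fpm in wild type (log2 fold change −0.66, limma adjusted *P*=0.0431). The calls of *ins-37*, *ins-1* and *cnc-3* were lost in edgeR and without a filter on low values. Those of *ins-1* and *cnc-3* were also lost after quantile normalization and with a pseudocount of 1 fpm. That of *cnc-3* was further lost after scaling by total reads, without the mean trend and with the FPKM limit of the study as the filter. DESeq2 gave no adjusted *P*-value for *ins-37*, *ins-1*, *cnc-3*, *nep-24* or *tkr-1*. Both *ins-1* and *cnc-3* differed more from wild-type library A than from library B. The highest insulin-like gene was *ins-34*, with 19.8 and 20.5 fpm in *meg-1 meg-2* against 17.2 and 15.6 fpm in wild type, followed by *ins-2*, with 12.96 and 11.5 fpm against 11.2 and 13.9 fpm, and neither was called. *cnc-10* and *cnc-4*, the other abundant caenacin genes, averaged 13.6 and 3.99 fpm in *meg-1 meg-2* and 13.7 and 3.17 fpm in wild type and were not called. *pdf-1* and the vasopressin-like gene *ntc-1* were tested and not called, and *snet-1* stayed below 1 fpm in all but wild-type library A.

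Later names add further genes of the same kind. In the annotation 31 more genes, all of them *nlp* genes, carry such a name but stand in the table under sequence names, and they are no members by the rule. Of these, 11 reached 1 fpm in at least 1 genotype, against 63.1% of the protein-coding genes in the table. Of the 9 tested, 0 were called, against 5.54% of all tested genes higher and 3.05% lower. None had a mean above 1.92 fpm over the 4 libraries. Wild-type library A was the highest for 5 of the 9, against 53.2% of the protein-coding genes at 1 to 5 fpm.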

How the data were processed

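RNA-seq of 2 *meg-1(vr10) meg-2* RNAi and 2 N2 libraries of embryos (TruSeq stranded total RNA kit, rRNA removed) was analysed. Per the labels and methods, the authors aligned reads to ce10 with HISAT2, counted them with HTSeq and scaled them with DESeq2. Versions and the strand setting are not given in the sources used here. The signal the authors deposited is the mean fpm of each genotype. The FPKM values the authors deposited are fpm per bp and are given here per kb. The authors' fold changes and adjusted *P*-values were not used.

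Each mean is a sum of whole reads times 1 step per library. Searching all pairs within a relative 8e-15 gave 1 pair for 42048 of 42048 wild-type and 42047 of 42048 *meg-1 meg-2* means, and the size factors settled the last. Size factors recomputed from the recovered reads matched.

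Genes with a mean of at least 1 fpm were tested with limma 3.58.1 (R 4.3.3, mean trend) on log2(fpm + 0.1). A fold change on this scale understates that of low genes. edgeR 4.0.16 and DESeq2 1.42.0 were run on the recovered reads, and scripts were tested on simulated data. Python 3.11.15 was used otherwise. The 95% intervals are limma's and rest on the spread between libraries, whereas the limit of 3 reads covers counting error only.

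Members and lists were chosen with earlier results of these data known. Genes named by rule are the 10 highest *flp* and *nlp* genes, the 5 largest and 5 smallest fold changes, members that passed a test, and called genes and the 3 highest of other lists. Some genes were named outside this rule, among them *egl-3*, *egl-21*, *unc-31*, *ida-1*, *nlp-16* and *flp-21*. All 75 members matched the WBcel235 annotation, of which only chromosomes, neighbours and overlaps were used.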

Additional observations from a re-analysis of the deposited data

How the results depend on the processing

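No paired analysis was possible because means of each genotype carry no replicate numbers. The members called higher and lower were 0 and 0 in the main test. Without a minimum fold change 1 was higher (*nlp-36*), with the FPKM limit of the study 1 was lower (*flp-21*), and leaving out 1 library gave from 0 to 3 higher and from 0 to 8 lower. Every other alternative also gave 0 in both directions. Log2 fold changes with a library left out were followed only for the members with the 5 largest and 5 smallest fold changes. Of these, 2 changed sign, *flp-9* to −0.0094 without wild-type library B and *nlp-30* to 0.011 without wild-type library A. Other named members were not followed in this way. The *meg-1 meg-2* mean was below wild-type library A in 32 of the 40 tested members and below library B in 10. Over all genes, 706 higher and 388 lower became 439 higher with DESeq2, 403 higher with edgeR, 435 higher after scaling by total reads, 256 and 132 without the mean trend, 3 and 1 without a filter, and 1755 and 997 without a minimum fold change. Over all genes, leaving out *meg-1 meg-2* library A gave 25 higher and 19 lower, library B 24 and 17, wild-type library A 460 higher, and wild-type library B 1431 and 1442. For the other peptide pathway genes, 2 higher and 4 lower in the main test became 0 and 1 with DESeq2 (which gave no adjusted *P*-value for the other 5), 0 and 2 with edgeR, 0 and 0 without a filter, 1 higher after scaling by total reads, 1 lower after quantile normalization, 1 lower without the mean trend, 2 lower with a pseudocount of 1 fpm, and 4 and 7 on unadjusted *P*-values. Leaving out 1 library gave from 0 to 4 higher and from 0 to 24 lower, the most without wild-type library B. The ratio of summed levels ranged from 0.729 to 1.06 for *flp* and from 0.935 to 1.26 for *nlp* genes. The cause was not tested, except that a fit without a *meg-1 meg-2* library takes its spread from the wild-type pair alone.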
